A study of Saccharomyces cerevisiae with 2 samples.

Results

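The subject is a set of 10 stress-response genes of Saccharomyces cerevisiae, out of 6692 genes counted in 2 RNA-seq libraries. The genes are HSP12 (YFL014W), HSP26 (YBR072W), HSP30 (YCR021C), HSP42 (YDR171W), HSP104 (YLL026W), YRO2 (YBR054W), MRH1 (YDR033W), SPI1 (YER150W), EGO4 (YNR034W-A) and DDR2 (YOL052C-A). They were chosen by name, with their RNA level and their ratio of replicate 2 to replicate 1 in these same libraries already known, and MRH1 stands beside HSP30 and YRO2 as their paralog. The replicate ratio of these genes is therefore a description and carries no test.

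Both libraries come from strain yJL59a, and they are replicates of 1 group. The paper gives w303 as the background from which all its strains derive. Cultures in methionine-containing synthetic medium reached an OD660 of 0.2, were washed, and spent 2 h without methionine. The strain is labelled MATa, with the allele his3-11,15 and an auxotrophic allele of LEU2 beside trp1-1, ura3-1, ade2-1 and can1-100. It also holds the constructs CDC20::MET3pr-mCherry::URA3 and CWC23::MET3pr-GFP::KanMX, in which the promoter of the sulfur gene MET3, active without methionine, was joined to fluorescent reporters. No library from cells with methionine was analysed here, so no gene can be called induced or repressed by its removal.

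Budding yeast answers many kinds of stress with a shared programme. The transcription factors Msn2 and Msn4 bind the stress response element (STRE), whose core is AGGGG, and switch on genes for protective proteins and storage sugars when growth signalling through protein kinase A is low. Hsf1 binds heat shock elements, arrays of alternating GAA and TTC units, and drives chaperone genes. The same programme comes up as glucose runs out, while genes for building ribosomes go down.

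The libraries held 34052011 counts (replicate 1) and 35367508 counts (replicate 2). Over the 5879 genes with a mean count of at least 50, the median ratio of replicate 2 to replicate 1, after division by library total, was 0.979, and the 5th and 95th percentiles were 0.754 and 1.23. The common biological coefficient of variation from edgeR was 10.2%. The labelled mating type was not borne out by its markers. Levels are given as FPKM, which corrects each count for coding length (per kb) and for library depth (per 1e+06 counts). Of 7 a-specific genes, 3 had mean counts under 50 and the other 4, STE6 and STE2 among them, stood between 3.92 and 12.0 FPKM. The 4 alpha-specific genes, MF(ALPHA)1 and SAG1 among them, stood between 229.9 and 2401 FPKM. For this reason MATa is given here only as a label.

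The upstream sequences are shown first, because their motifs differ between the genes. They are those of the reference genome and were not read from the w303-derived strain, which may differ from it. The choice did not read these sequences, but it took known stress-response genes, so their STREs are not independent of it. The windows are read 5′ to 3′ on the coding strand of the RefSeq R64 assembly, called sacCer3 in the labels, and distances are counted in bases before the start codon. Capitals mark STRE matches (AGGGG or CCCCT), heat shock element matches (GAANNTTC or TTCNNGAA) and TATA matches (TATAAA or TTTATA), each searched on both strands. HSP12 and EGO4 stand for genes with many STREs, SPI1 and DDR2 for STREs followed by a TATA match, HSP104 and HSP42 for an array of heat shock elements beside STREs, and HSP30 for a gene without STRE or heat shock element.

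HSP12, chrVI:106818-107117, plus strand, bases -438 to -139, with 5 STREs and 1 TATA match:
HSP12: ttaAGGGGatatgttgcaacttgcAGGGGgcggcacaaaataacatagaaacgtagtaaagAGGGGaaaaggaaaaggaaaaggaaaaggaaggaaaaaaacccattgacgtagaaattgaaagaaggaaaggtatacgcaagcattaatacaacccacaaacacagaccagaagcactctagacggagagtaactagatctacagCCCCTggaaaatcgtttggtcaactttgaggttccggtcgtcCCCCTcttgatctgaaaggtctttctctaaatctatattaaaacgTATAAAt
EGO4, chrXIV:692201-692457, plus strand, bases -360 to -104, with 3 STREs and 3 TATA matches:
EGO4: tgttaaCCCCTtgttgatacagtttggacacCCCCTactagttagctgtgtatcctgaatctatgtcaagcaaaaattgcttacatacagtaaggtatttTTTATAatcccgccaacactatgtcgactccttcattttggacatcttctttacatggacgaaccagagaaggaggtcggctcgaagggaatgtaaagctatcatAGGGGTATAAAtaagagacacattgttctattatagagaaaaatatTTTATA
SPI1, chrV:468100-468264, plus strand, bases -270 to -106, with 2 STREs, 1 heat shock element and 1 TATA match:
SPI1: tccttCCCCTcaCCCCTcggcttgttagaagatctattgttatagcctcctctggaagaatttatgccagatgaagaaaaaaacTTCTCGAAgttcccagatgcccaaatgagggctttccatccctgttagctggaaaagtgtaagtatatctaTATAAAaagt
DDR2, chrXV:231865-232005, minus strand, bases -250 to -110, with 3 STREs and 4 TATA matches:
DDR2: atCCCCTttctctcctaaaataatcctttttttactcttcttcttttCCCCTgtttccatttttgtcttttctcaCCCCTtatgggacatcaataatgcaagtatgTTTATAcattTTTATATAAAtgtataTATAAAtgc
HSP104, chrXII:88318-88458, plus strand, bases -305 to -165, with 3 STREs and 3 overlapping heat shock elements:
HSP104: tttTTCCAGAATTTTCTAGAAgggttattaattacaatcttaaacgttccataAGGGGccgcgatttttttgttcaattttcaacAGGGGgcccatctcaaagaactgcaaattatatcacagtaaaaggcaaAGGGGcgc
HSP42, chrIV:806375-806446, plus strand, bases -246 to -175, with 3 STREs and 3 overlapping heat shock elements:
HSP42: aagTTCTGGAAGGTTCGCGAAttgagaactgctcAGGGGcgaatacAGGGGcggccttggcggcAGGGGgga
HSP30, chrIII:157278-157407, minus strand, bases -300 to -171, with none of the 3 motifs (its 1 TATA match lies nearer the start codon, at -74 to -69):
HSP30: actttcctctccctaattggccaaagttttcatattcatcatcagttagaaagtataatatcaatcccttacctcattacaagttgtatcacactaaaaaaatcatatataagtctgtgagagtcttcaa

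As means of both replicates, all 10 genes had an RNA level above the all-gene median of 45.9 FPKM, from 53.7 FPKM for HSP26 to 1736 FPKM for HSP12. In replicate 1 alone HSP26 stood at 37.5 FPKM, below the all-gene median of 47.0 FPKM in that library. All 10 had the larger value in replicate 2. Of the 10, 8 were at least 1.5-fold higher in replicate 2 and 5 were at least 2-fold higher, and none was 1.5-fold lower. Over all 5879 genes, 1.22% were at least 1.5-fold higher in replicate 2, 2.01% at least 1.5-fold lower, 0.119% at least 2-fold higher and 0.153% at least 2-fold lower. Since the ratio was known when the genes were chosen, nothing is read from that contrast. The median ratio of the 10 was 1.95. Their summed share of all counts was 0.343% in replicate 1 and 0.596% in replicate 2, and without MRH1 it was 0.226% and 0.473%. With 2 libraries, a difference between cultures, RNA extractions and library preparations cannot be told apart, nor can more cells in a stressed state from more RNA per cell.

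**Figure D1:**
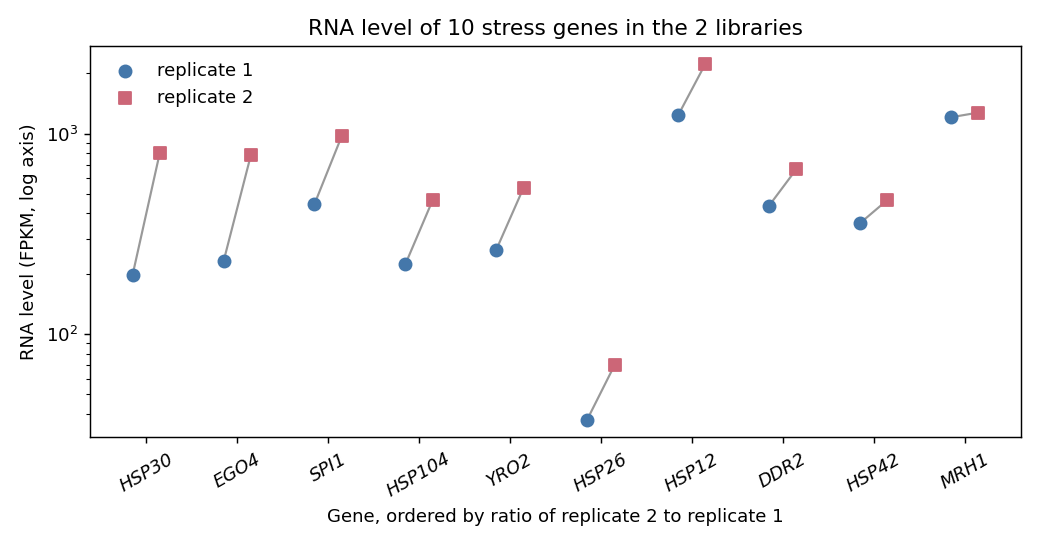
RNA level in FPKM on a log axis of the 10 stress genes, with replicate 1 as a circle and replicate 2 as a square joined by a line, ordered by the ratio of replicate 2 to replicate 1. The line is steepest for HSP30, which goes from 197 to 805 FPKM, and nearly flat for MRH1, which goes from 1208 to 1275 FPKM.

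The membrane proteins held both the widest and the narrowest replicate ratio. HSP30 encodes a plasma membrane protein that restrains the proton pump Pma1 and is known to be induced by heat, ethanol and weak acids. It had 6718 counts in replicate 1 and 28455 in replicate 2, or 197 and 805 FPKM. Its ratio of 4.08 (95% exact binomial interval for counting error 3.97 to 4.19) was the highest of all 5879 genes. These intervals treat each count as independent, and they would be too narrow if both mates of a pair were counted. YRO2, whose loss makes cells sensitive to acetic acid and which responds to the acid-stress factor Haa1, had 9300 and 19689 counts, or 264 and 538 FPKM, a ratio of 2.04 (1.99 to 2.09). MRH1 encodes a long-lived protein of the plasma membrane. It stood at 1208 and 1275 FPKM on 39625 and 43428 counts, a ratio of 1.06 (1.04 to 1.07), inside the range of most genes.

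Protein likeness did not follow the replicate ratio within this family. In a global alignment of the translated coding sequences, YRO2 (344 residues) and MRH1 (320 residues) were identical at 70.8% of 319 aligned positions. HSP30 (332 residues) was identical to YRO2 at 39.5% of 304 positions and to MRH1 at 34.8%. So the closest pair, YRO2 and MRH1, had ratios of 2.04 and 1.06, while the most distant member, HSP30, had 4.08. The family's order of level also differed between the libraries. In replicate 1 HSP30 stood at 0.748 times the level of YRO2, and in replicate 2 at 1.5 times. MRH1 stood at 6.12 times the level of HSP30 in replicate 1 and at 1.58 times in replicate 2. Elsewhere in the genome, blastn found no alignment of 98% identity and 50 bp for any of the 10 coding sequences, and none overlaps another annotated gene.

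The genes of a cell wall protein, SPI1, and of a membrane-associated protein, HSP12, were also higher in replicate 2. SPI1 encodes a cell wall protein held by a GPI anchor that helps cells withstand weak acids. It had 6776 and 15379 counts, or 445 and 973 FPKM, a ratio of 2.19 (2.12 to 2.25). HSP12 encodes a small protein that associates with the plasma membrane and keeps it ordered under stress. It was the highest of the 10 in both replicates, at 1237 and 2236 FPKM on 13896 and 26096 counts, a ratio of 1.81 (1.77 to 1.85). SED1, the paralog of SPI1 and a major cell wall protein (50.7% identity over 144 positions), was far higher in level and close to even, at 7186 and 7851 FPKM, a ratio of 1.09. A high level thus went with both wide and narrow ratios among these genes.

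The chaperones spanned a range from 1.30 to 2.09. HSP104, the disaggregase that pulls proteins out of aggregates together with Hsp70, had 20732 and 44955 counts, or 223 and 466 FPKM, a ratio of 2.09 (2.05 to 2.12). Its mitochondrial relative HSP78 (43.9% identity over 790 positions) stood at 63.9 and 111 FPKM, a ratio of 1.73. HSP26 and HSP42 are the small heat shock proteins of the cytosol, which hold unfolding proteins. HSP26, with 823 and 1595 counts or 37.5 and 69.9 FPKM, was the lowest of the 10 in both libraries and had a ratio of 1.87 (1.71 to 2.03). HSP42, with 13739 and 18619 counts or 358 and 467 FPKM, had a ratio of 1.30 (1.28 to 1.33) and did not reach 1.5-fold. The level of HSP42 was 9.55 times that of HSP26 in replicate 1 and 6.67 times in replicate 2. Reading frames of at least 100 codons that are not annotated genes overlap HSP42, of which 63.8% is free of them, and counts could be lost or gained there. The other 9 genes are 100% free of such overlap.

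The smallest genes were EGO4 and DDR2. EGO4 is a gene of 297 bp and unknown function, known to be expressed as glucose runs out and to depend on Msn2 and Msn4. It had 2330 and 8181 counts, or 230 and 779 FPKM, and its ratio of 3.38 (3.23 to 3.54) ranked 2nd of 5879 genes after HSP30. DDR2, a 186 bp gene that responds to DNA damage and many other stresses, had 2771 and 4379 counts, or 437.5 and 666 FPKM, a ratio of 1.52 (1.45 to 1.60). Its paralog HOR7 (45.8% identity over 59 positions) was at 6161 and 8273 FPKM, a ratio of 1.34. EGO2, a subunit of the EGO complex on the vacuole named as the paralog of EGO4 (15 of 75 aligned positions identical), stood at 74.4 and 56.7 FPKM, a ratio of 0.761. EGO2 and EGO4 were thus on opposite sides of 1.

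By ratio, the order was HSP30, EGO4, SPI1, HSP104, YRO2, HSP26, HSP12, DDR2, HSP42 and MRH1. The counting intervals of HSP104 and YRO2 overlapped, as did those of YRO2 and HSP26 and of HSP26 and HSP12, and the other neighbours in that order did not overlap. For SPI1 above HSP104 the gap was very narrow, with a lower limit of 2.1235 against an upper limit of 2.1225. Slightly wider intervals would close it, so the order of these genes is not settled. Since the intervals hold counting error only and no spread between replicates, the gaps between the other neighbours do not settle their order either. By mean level, the order was HSP12 (1736 ± 707 FPKM, SD, n = 2), MRH1 (1242 ± 47.2), SPI1 (709 ± 373), DDR2 (552 ± 161), EGO4 (505 ± 388), HSP30 (501 ± 430), HSP42 (412 ± 77.1), YRO2 (401 ± 194), HSP104 (345 ± 172) and HSP26 (53.7 ± 22.9). For 7 of these 9 neighbouring pairs the ranges of the 2 libraries overlapped. The exceptions were MRH1 above SPI1 and HSP104 above HSP26. HSP30 changed place most, from 9th of the 10 in replicate 1 to 4th in replicate 2, and DDR2 and HSP42 moved down, from 4th to 6th and from 5th to 8th.

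**Figure D2:**
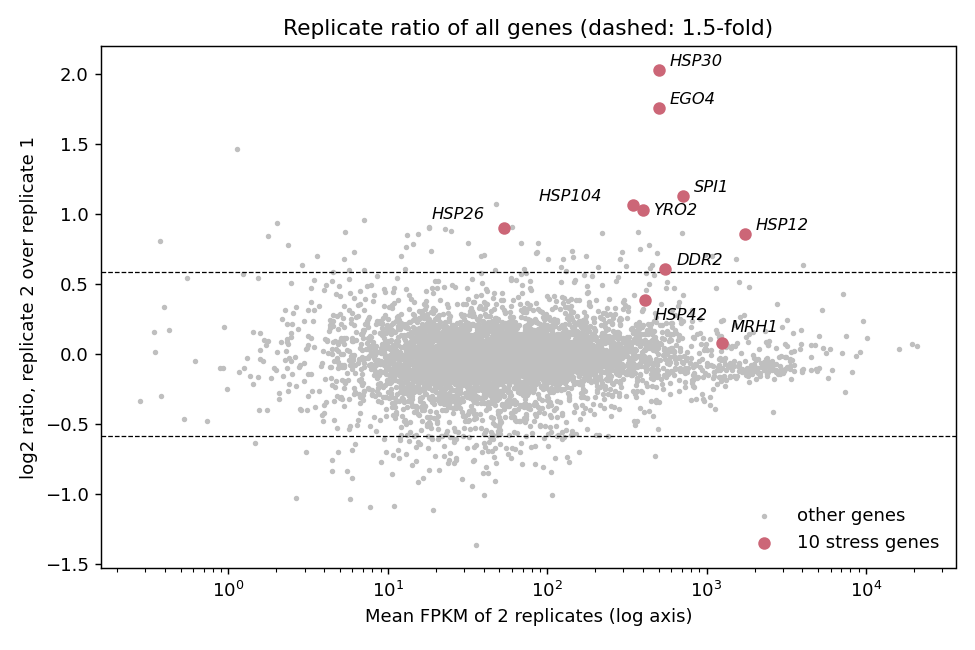
Ratio of replicate 2 to replicate 1 on a log2 scale against mean FPKM on a log axis, with 1 point per gene with a mean count of at least 50 and a known coding length, the 10 stress genes in red and dashed lines at 1.5-fold. HSP30 and EGO4 lie at log2 ratios of 2.03 and 1.76, above every other point, HSP42 lies inside the dashed lines at 0.38, and MRH1 lies inside at 0.08.

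The genes on either side did not share the ratio. Each stress gene was compared with the nearest annotated gene on either side. Of the 20 flanking genes, 19 had a mean count of at least 50, and of these 0 were 1.5-fold higher and 0 were 1.5-fold lower in replicate 2, with ratios between 0.787 and 1.16. The lowest was that of YDR170W-A, 2103 bp upstream of HSP42. Near-identical copies of the flanking genes elsewhere in the genome are not given here, so their counts may be shared with such copies. Over all genes 1.22% were at least 1.5-fold higher and 2.01% lower, so the flanking genes were near the share of any genes. HSP30 lies on chromosome III between YCR022C, 313 bp upstream with a ratio of 1.10, and HTL1, 552 bp downstream with 0.840. EGO4 lies on chromosome XIV between SOL1, 1274 bp upstream with a ratio of 1.01, and ARC35, a subunit of the Arp2/3 complex, 161 bp downstream with 1.08. HSP12 shares a 292 bp upstream region with the divergent reading frame YFL015C, which stood at 4.57 and 3.60 FPKM, a ratio of 0.788, against 1.81 for HSP12. The mean count of YFL015C was only 70, so its ratio is imprecise. The 10 genes lie on 8 chromosomes, with HSP26 and YRO2 both on II and HSP42 and MRH1 both on IV.

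**Figure D3:**
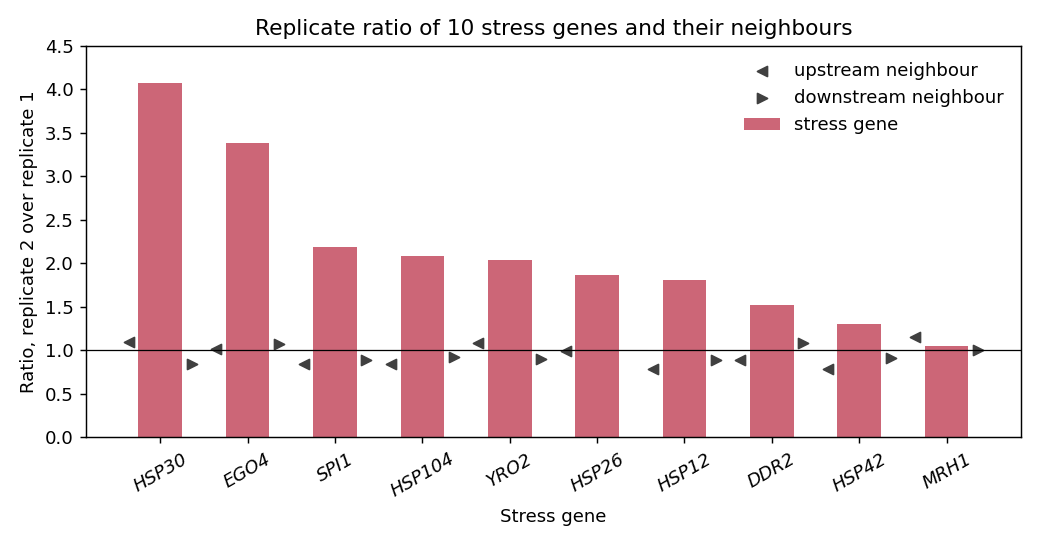
Ratio of replicate 2 to replicate 1 for the 10 stress genes (bars, linear axis from 0) and for the nearest annotated gene upstream and downstream (triangles) where its mean count was at least 50. The triangles stay between 0.787 and 1.16 beside bars of up to 4.08.

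Upstream sequences divided the genes into a group of 7 and a group of 3. In the 500 bases before the start codon, HSP12 and EGO4 held 5 STRE matches each, DDR2 held 4, and HSP26, HSP42, HSP104 and SPI1 held 3 each, while HSP30, YRO2 and MRH1 held 0. So 7 of 10 had at least 3 STREs, against 1.83% of 6006 windows of that length over the genome. Because the 10 were picked as stress-response genes, that contrast is a description and no independent result. In the shorter window of 250 bases before to 50 after the start, 5 of 10 had at least 1 STRE, against 21.6% of 6007 windows, and 4 of 10 had at least 2, against 2.96%. In 1000 bases, a window added after the matches were seen, HSP30 and MRH1 still held 0 and YRO2 held 1, and 55.0% of windows genome-wide held at least 1. The genes without STRE in 500 bases had ratios of 4.08, 2.04 and 1.06, and the genes with at least 3 had ratios from 1.30 to 3.38, so the number of STREs did not order the ratios. A match is only a run of letters, and its absence from a window says nothing about the factor.

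Heat shock elements marked fewer genes. In the short window HSP42 held 3 matches and SPI1 held 1, so 2 of 10 had at least 1, against 22.6% of windows. In 500 bases 6 of 10 had at least 1, against 35.2%. HSP42 and HSP104 each held 3 matches, each overlapping the next by 3 bases, that form 1 array, as the capitals in their windows show, and 1.78% of windows held at least 3. In HSP42 the array lies from -243 to -226 and the STREs from -212 to -178, and in HSP104 the array lies from -302 to -285 and the STREs from -252 to -168. With the same arrangement, the ratios of these genes were 1.30 and 2.09. The post-diauxic element TAGGGAT, which shares AGGG with the STRE, was found in the short window of 1 gene, HSP42, against 1.68% of windows. That match lies after the start codon, and none of the 10 had one in the 500 bases before it, against 2.86% of windows. A TATA match lay in the short window of 6 of 10, against 45.2% of windows. In HSP12, HSP26, SPI1, EGO4 and DDR2 a TATA match lies closer to the start codon than every STRE, and in EGO4 it directly abuts one.

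**Figure D4:**
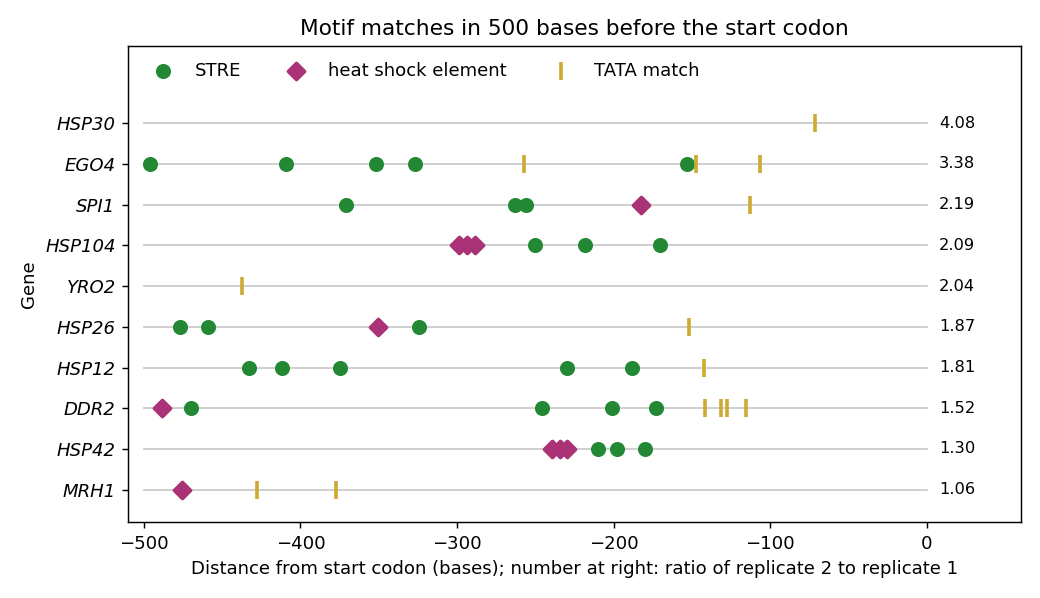
Motif matches in the 500 bases before the start codon of each stress gene, by distance in bases, with circles for STRE, diamonds for heat shock elements and ticks for TATA matches, ordered by the ratio of replicate 2 to replicate 1 printed at the right. HSP30, YRO2 and MRH1 have no circle, and HSP104 and HSP42 have a cluster of 3 diamonds upstream of 3 circles.

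Across the genome, with the 10 genes left out, the share of genes higher in replicate 2 was set against the number of STREs in 500 bases. Of 3704 genes with no match, 22 or 0.594% were at least 1.5-fold higher, of 1474 genes with 1 match 20 or 1.36%, of 361 genes with 2 matches 13 or 3.60%, and of 100 genes with 3 or more 4 or 4.00%. The shares at least 1.5-fold lower were 2.29%, 1.42%, 0.277% and 1.00%. The median log2 ratio went from -0.05 with no match to 0.10 with 3 or more, a small shift beside the 1.5-fold line. In the short window the shares higher were 0.771%, 2.06%, 1.47% and 3.70%, the last being 1 of 27 genes. For heat shock elements in 500 bases the shares higher were 0.878% with no match, 1.32% with 1, 1.06% with 2 and 3.03% with 3 or more, and the median log2 ratios were all -0.03. Genes are not independent replicates, and these shares are descriptions of the 2 libraries.

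Most other general stress genes were also on the side of replicate 2, with a lower median ratio than the 10, which were chosen with their ratios known. Over all genes tested, 1.22% were at least 1.5-fold higher in replicate 2 and 2.01% at least 1.5-fold lower. Of 30 other general stress genes, 26 had a ratio above 1, and the median ratio of the 30 was 1.25, against 0.979 over all genes tested. At least 1.5-fold higher were 4 of them (6 with TMM or DESeq2 scaling), and 0 were 1.5-fold lower. The 4 were the aldehyde dehydrogenase gene ALD3 (15.9 and 29.5 FPKM, a ratio of 1.85), the reticulon gene RTN2 (133 and 215 FPKM, 1.62), the glutamate decarboxylase gene GAD1 (1.62) and the hexokinase gene HXK1 (1.60). CTT1, the cytosolic catalase that is a classic Msn2 and Msn4 target, had a ratio of 1.47, and SIP18 and GRE1, which encode hydrophilins, had 0.975 and 0.999. Glycogen genes had a median ratio of 1.33, with 3 of 12 at least 1.5-fold higher: the debranching enzyme GDB1 (1.73), the phosphorylase GPH1 (1.68) and the synthase GSY2 (1.66). Trehalose genes had a median ratio of 1.17, with all 7 above 1 and 0 past 1.5-fold, led by TSL1 (1.41) and TPS2 (1.29). Beside the all-gene shares, the count of 0 of 7 past 1.5-fold does not set these genes apart. Their lowest log2 ratio, 0.18 for ATH1, nevertheless lay above the all-gene upper quartile of 0.08. The lists were written with earlier results of these data known and share some genes.

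Hsf1 chaperones were mixed. Of 22, 4 were at least 1.5-fold higher in replicate 2 and 0 lower, beside 1.22% and 2.01% over all genes, and the median ratio was 1.15. The 4 were HSP78, the inducible Hsp90 gene HSP82 (50.4 and 87.0 FPKM, a ratio of 1.73), and the Hsp70 genes SSA4 (30.7 and 50.0 FPKM, 1.63) and SSA1 (222 and 354 FPKM, 1.59). The constitutive Hsp90 gene HSC82 was even, at 534 and 547 FPKM, and the Hsp70 partners YDJ1 and SSE1 had ratios of 0.906 and 0.901. HSP82 and HSC82, and SSA1 and SSA2, are close paralogs. At 98% identity over a whole alignment no copy was found for them (0% of the coding sequence), but shorter identical stretches would be missed, so the split of counts between them is uncertain. Of the 8 other genes with an HSP name, 6 reached a mean count of 50 and 2 of them, HSP78 and HSP82, passed 1.5-fold, and HSP150, a cell wall protein, had 1.04.

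The weak acid list, close in role to HSP30, YRO2 and SPI1, was near even apart from a few genes. Of 10 genes, 1 was at least 1.5-fold higher, beside 1.22% over all genes. It was YGP1, a secreted glycoprotein of starving cells, at 828 and 1340 FPKM and a ratio of 1.62. The exporter gene TPO3 followed at 1.43, and the median was 1.06. PMA1, the proton pump that Hsp30 restrains, stood at 2194 and 2454 FPKM, a ratio of 1.12. Osmotic response genes had a median ratio of 1.04, with 0 of 8 past 1.5-fold, and GPP2 (1.14) and STL1 (1.11) highest. Of 12 stress regulator genes, 0 passed 1.5-fold, the ratios lay between 0.891 and 1.17, and MSN4 (1.17) and GIS1 (1.08) were highest. With all-gene shares of 1.22% higher and 2.01% lower, 0 of 8 and 0 of 12 do not set the osmotic and regulator lists apart. The RNA ratios of these regulators lay between the 5th and 95th percentiles of all genes, and their activity was not measured.

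Growth genes lay on the other side. All 20 ribosome biogenesis genes had a ratio below 1, and 9 of them were at least 1.5-fold lower in replicate 2, beside 2.01% over all genes. Their median ratio was 0.689, from 0.579 for RPF2, a large-subunit assembly factor, to 0.810 for TIF6. RRP9, at 0.788, came next to TIF6. Of 129 cytosolic ribosomal protein genes tested, 0 passed 1.5-fold in either direction, beside 1.22% higher and 2.01% lower over all genes. Their median ratio was 0.925, with 7 above 1, RPL22B (1.15) and RPL4B (1.09) highest. These shifts moved together with those of the stress genes in the same 2 libraries, and their part in the stress gene ratios was not tested. Gene length, base composition and level had weak relations with the ratio. Across 5649 genes Pearson's r with the log2 ratio was -0.048 for log2 coding length, 0.141 for coding GC and 0.070 for log2 mean FPKM. The coding GC of the 10 genes lay between 39.8% and 48.2%, against an all-gene median of 39.8%, and the part of base composition in their ratios was not tested.

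**Figure D5:**
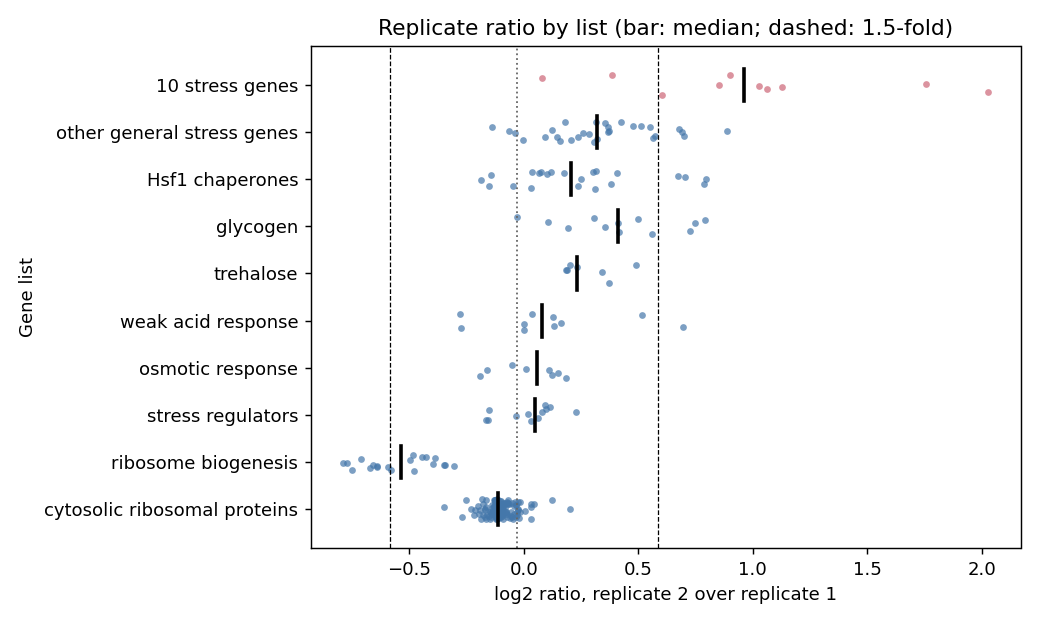
Ratio of replicate 2 to replicate 1 on a log2 scale, 1 point per gene, for the 10 stress genes and 9 other lists, with black bars at the list medians, a dotted line at the all-gene median of -0.03 and dashed lines at 1.5-fold. The median is 0.96 for the 10 stress genes, between 0.05 and 0.41 for the other stress lists and -0.54 for ribosome biogenesis, with points spread vertically within a list for legibility.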

How the data were processed

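RNA-seq of 2 replicate libraries of 1 group was used, which the study calls biologically independent. The methods state capture of mRNA on beads, the NEBNext Ultra II DNA kit and paired reads. The submitters' processing notes name featureCounts 2.0.3 and sacCer3. An RNA-seq aligner, annotation or strand setting was not given in the sources used here. Although the authors call the deposited values FPKM, they are counts, whole numbers with unequal totals. It is not stated if a count stands for a read or for a pair. The count total lies above the number of uniquely mapped reads that the paper lists for replicate 1, and below that for replicate 2. The counts per mapped read thus differed between the libraries, and the part of this in the ratios was not tested.

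FPKM was computed here from counts, coding length and library total. Of 6692 genes, 685 had no match in the R64 annotation (0.281% and 0.292% of counts). They have no length and stayed in the totals. Ratios used library totals without pseudocount, for genes with a mean count of at least 50. Their 95% exact binomial intervals (scipy 1.17.1) cover counting error only, since they hold no term for the spread between replicates. No mention of molecular identifiers was found in the sources used here, and repeated copies of a molecule would make the intervals too narrow. No test between conditions was possible. R 4.3.3 with edgeR 4.0.16 gave TMM factors and the spread, and DESeq2 1.42.0 gave size factors. Copies were sought with blastn 2.17.0, proteins were aligned with Biopython 1.88, and upstream windows were read from the RefSeq R64 genome. The ratio and its interval were tried on simulated counts with counting error only and no spread between replicates. That trial cannot show how the interval fits these libraries, whose common biological coefficient of variation was 10.2%. Alternatives were other scaling, pseudocounts, count minimums, folds, windows, genes without copies or overlap, and leaving out 1 replicate.

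The 10 genes and all lists were chosen with earlier results of these data known. The text names the 10 genes, their relatives and flanking genes, and the 2 highest ratios of each list. It also names, among other genes of at least 100 FPKM, the 10 highest and 5 lowest ratios. GAD1, HXK1, CTT1, SIP18, GRE1, SSA4, SSA1, SSA2, HSC82, YDJ1, SSE1, HSP150, PMA1 and RPF2 were chosen after their values were seen.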

Additional observations from a re-analysis of the deposited data

How the results depend on the processing

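The median level of the 10 stress genes was 503 FPKM as the mean of both replicates, and 311 to 722 FPKM with 1 replicate left out. A replicate ratio needs both libraries, so it has no value with 1 left out. All 10 ratios stayed above 1, and the same 8 genes passed 1.5-fold, with TMM factors, with DESeq2 size factors, which shifted all genes by 0.03 on the log2 scale, and with 1 or 0.1 FPKM added. Of all genes, 72 were at least 1.5-fold higher and 118 lower. With a mean count of at least 1 these were 186 and 261, and at 2-fold 7 and 9. In place of 5, 1 and 2 genes with an STRE, a post-diauxic element and a heat shock element, the window of 1000 bases gave 8, 0 and 6, and that of 500 bases gave 0 and 6 for the last 2. Genome-wide shares rose with length too, from 21.6%, 1.68% and 22.6% in the first window to 55.0%, 6.25% and 59.7% in 1000 bases. In 500 bases they were 2.86% and 35.2% for the last 2. For heat shock elements, 6 of 10 in 1000 bases is thus the genome-wide share. The longer windows differ from the first in length and in leaving out the 50 bases after the start codon, where the post-diauxic match of HSP42 lies. Of 30 other general stress genes, 6 rather than 4 passed 1.5-fold with TMM factors and with DESeq2 size factors. Depth limits HSP26 most, with 823 counts in replicate 1. No paired analysis was possible because there is 1 group.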

Other observations

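Among the 1644 other genes of at least 100 FPKM, the 10 highest ratios of replicate 2 to replicate 1 belonged to genes of several kinds. Mitochondrial phosphate carrier gene PIC2 led at 264 and 481 FPKM, a ratio of 1.82, followed by ARO5 (1.82), and the glucose transporter gene HXT4 stood at 499 and 906 FPKM, a ratio of 1.82. ADH5, an alcohol dehydrogenase gene, had 1.71 and the cell wall gene PIR3 1.66, and the glycogen genes GPH1 and GSY2 and the reticulon gene RTN2 were also among the 10. The other 2 belong to amino acid synthesis, with HIS4 of the histidine pathway at 372 and 611 FPKM (1.64) and ARG4 of the arginine pathway at 741 and 1207 FPKM (1.63).

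The 5 lowest were LYS9 of lysine synthesis, at 143 and 71.1 FPKM and a ratio of 0.495, and NOP15 (0.557), YBL028C (0.584), EBP2 (0.595) and MRT4 (0.598). NOP15, EBP2 and MRT4 act in the assembly of the large ribosomal subunit. Amino acid synthesis genes were thus found at both ends, and no list of them was examined here.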
